A study of Mus musculus with 11 samples.

Results

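Immediate early genes are switched on within minutes by growth factors, calcium or tissue damage, without new protein synthesis, through factors such as SRF, ELK and CREB that already sit in the cell. The inducible Hsp70 genes are switched on by heat shock factor 1 when proteins unfold. Both classes respond to dissection and warming of tissue, so they are commonly read as a measure of how tissue was handled. Here 10 such genes were followed library by library, namely the AP-1 subunits and relatives Fos, Fosb, Jun, Junb and Atf3, the zinc finger factor Egr1, the nuclear protein Ier2, the MAP kinase phosphatase Dusp1, and the Hsp70 chaperones Hspa1a and Hspa1b. They were chosen by name, and all 10 were found by Ensembl identifier among 38561 genes.

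RNA came from facial processes (mandibular and maxillary arch and nasal processes) of mouse embryos at embryonic day 10.5, dissected in cold buffered saline, on a strain given as mixed. The study asked what the secreted ligand WNT9b and its enhancer RSPO2 do together in facial development. The paper states 3 samples per genotype, and 2 wild type libraries were available here. Wild type (wt, n = 2) was compared with embryos homozygous mutant for Rspo2 (Rspo2KO, n = 3), for Wnt9b (Wnt9bKO, n = 3) or for both (DKO, n = 3). The paper describes 2 Rspo2 null alleles, and which of them these libraries carry is not given in the sources used here. The genotype names follow the labels throughout, and whether a library is 1 embryo or a pool is not given in the sources used here. The p-values therefore measure the spread between these libraries.

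The 11 libraries held 11136166 to 18017344 counts. Rspo2 was at 14.8 and 16.0 CPM (counts scaled to library totals with TMM factors) in wt and at 4.74 to 6.59 CPM in Rspo2KO, but at 2.86 CPM in the library labelled Wnt9bKO 2 and at 15.5 CPM in the one labelled DKO 3, which goes against both labels. Wnt9b itself stood between 16.2 and 23.3 CPM where the label was Wnt9bKO or DKO, and between 10.8 and 16.7 CPM elsewhere. Which exons the mutant allele lacks is not given in the sources used here, so the Wnt9b counts check nothing. Xist, the RNA of the inactive X chromosome, was at 680 to 1469 CPM in wt and DKO and at 1.94 CPM or less in both single mutants, so sex cannot be told apart from genotype in either single mutant against wt, in DKO against either single mutant or in the interaction. Xist was high in both DKO and wt, and high and low libraries fall on both sides of the average over both Rspo2 states. Small nuclear RNAs stood at 352 to 420 CPM in wt and Rspo2KO and at 70.1 to 82.7 CPM in Wnt9bKO and DKO. Summed erythroid markers stood at 3948 to 5768 CPM in wt and Rspo2KO and at 1744 to 2851 CPM in Wnt9bKO and DKO (7 of 8 markers lower in the Wnt9b average defined below). Summed macrophage markers were at 46.8 to 60.1 CPM against 24.9 to 40.6 CPM in the same libraries (5 of 8 lower). Summed muscle markers were at 10.2 to 64.4 CPM against 5.60 to 11.3 CPM (4 of 8 tested, 3 lower). Summed neuron markers were at 551 to 614 CPM in wt, 677 to 796 in Rspo2KO, 366 to 548 in Wnt9bKO and 675 to 722 in DKO. Facial mesenchyme markers were present in every library, at 938 to 997 CPM in wt, 708 to 771 in Rspo2KO, 619 to 1170 in Wnt9bKO and 736 to 879 in DKO, as were those of surface epithelium (213 to 253 CPM). The mitochondrial share of counts was 11.6 and 11.7% in wt, 11.5 to 16.5% in Rspo2KO, 9.76 to 16.3% in Wnt9bKO and 14.5 to 21.5% in DKO, so DKO lay above wt, and it was lowest in Wnt9bKO 1. The part of these cells, of the mitochondrial share and of whatever separates the small nuclear RNAs in the differences between genotypes was not tested. In bulk tissue, fewer cells of a type and less RNA per cell cannot be told apart.

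Promoters are shown for Dusp1, Junb and Hspa1b, which were called in at least 1 comparison, and for Hspa1a, the near copy of Hspa1b, because response elements of both classes lie in them. Each line holds the 250 bases before the RefSeq start (GRCm38.p6), 5′ to 3′ on the gene's strand. Capitals mark matches to TGACG or TGACGTCA, partial and whole cyclic AMP response elements, or to GAANNTTC, a core of the heat shock element. Both strands were searched, and the partial element overlaps the whole one. The windows are Dusp1, chr17:26508473-26508722, Junb, chr8:84978749-84978998, Hspa1b, chr17:34959239-34959488, and Hspa1a, chr17:34972157-34972406, all on the minus strand.
Dusp1: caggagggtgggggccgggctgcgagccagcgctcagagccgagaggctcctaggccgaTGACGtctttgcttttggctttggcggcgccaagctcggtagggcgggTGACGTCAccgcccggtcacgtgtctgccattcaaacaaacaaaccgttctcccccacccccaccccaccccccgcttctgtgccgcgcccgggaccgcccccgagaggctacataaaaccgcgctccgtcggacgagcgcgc
Junb: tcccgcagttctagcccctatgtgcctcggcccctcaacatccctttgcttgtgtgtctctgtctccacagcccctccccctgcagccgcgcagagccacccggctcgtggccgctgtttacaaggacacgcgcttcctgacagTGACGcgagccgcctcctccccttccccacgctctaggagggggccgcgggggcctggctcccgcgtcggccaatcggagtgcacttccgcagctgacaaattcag
Hspa1b: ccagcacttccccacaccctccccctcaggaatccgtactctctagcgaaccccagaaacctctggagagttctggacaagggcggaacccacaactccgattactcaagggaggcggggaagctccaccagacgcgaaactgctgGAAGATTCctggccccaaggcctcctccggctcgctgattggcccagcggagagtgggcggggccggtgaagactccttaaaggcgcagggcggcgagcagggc
Hspa1a: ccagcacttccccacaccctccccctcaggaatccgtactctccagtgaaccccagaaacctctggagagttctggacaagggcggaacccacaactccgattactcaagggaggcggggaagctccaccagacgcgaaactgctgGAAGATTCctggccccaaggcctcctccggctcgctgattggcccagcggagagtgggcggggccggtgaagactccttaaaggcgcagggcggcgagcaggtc

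The whole element TGACGTCA lay in Dusp1 at -143 to -136 from the start and is found in 1.79% of 32851 RefSeq promoter windows of 300 bases (250 before the start and 50 after). The partial element TGACG was matched in Fos, Fosb, Junb, Dusp1 and Atf3, and is found in 20.8% of windows. GAANNTTC lay at -104 to -97 in Hspa1b and Hspa1a and at -128 to -121 in Jun, and is found in 7.86% of windows. Neither the AP-1 site TGACTCA (5.2% of windows) nor the CArG box, the SRF site (1.63%), was matched in the 8 members with a window. Egr1 and Ier2 had no entry in the promoter table. The windows of Hspa1a and Hspa1b were identical at 296 of 300 bases. The differences, counted from 1 at the 5′ end of the window with the Hspa1a base first, were C44T, T47C, T249G and C276T, none of them in the heat shock match.

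Most members were low in every library. On a scale per kilobase of exon, Ier2 had a mean level of 18.3 ± 2.46 CPM per kb (SD, n = 11 libraries) and Jun 14.7 ± 1.71, which placed them at the 84.1th and 79.6th percentile of 14569 protein-coding genes tested. Dusp1 was at 4.89 ± 0.99 CPM per kb, close to the median gene (4.69). Below the median came Junb at 1.67 ± 0.40, Atf3 at 0.704 ± 0.162, Hspa1b at 0.500 ± 0.205, Fos at 0.356 ± 0.136, Egr1 at 0.319 ± 0.072, Hspa1a at 0.139 ± 0.065 and Fosb at 0.022 ± 0.025 CPM per kb. Each gene down to Junb was above the next in 11 of 11 libraries, as was Hspa1a above Fosb. Atf3 was above Hspa1b in 10 libraries, Hspa1b above Fos in 8, Fos above Egr1 in 8 and Egr1 above Hspa1a in 10, so Hspa1b, Fos and Egr1 are neighbours whose order changed between libraries. The places of Hspa1a and Hspa1b in this order also depend on how reads shared with other genes were counted, which is not given. Fos and Egr1, widely used markers of an acute response, lay at the 9.95th and 8.86th percentile.

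**Figure D1:**
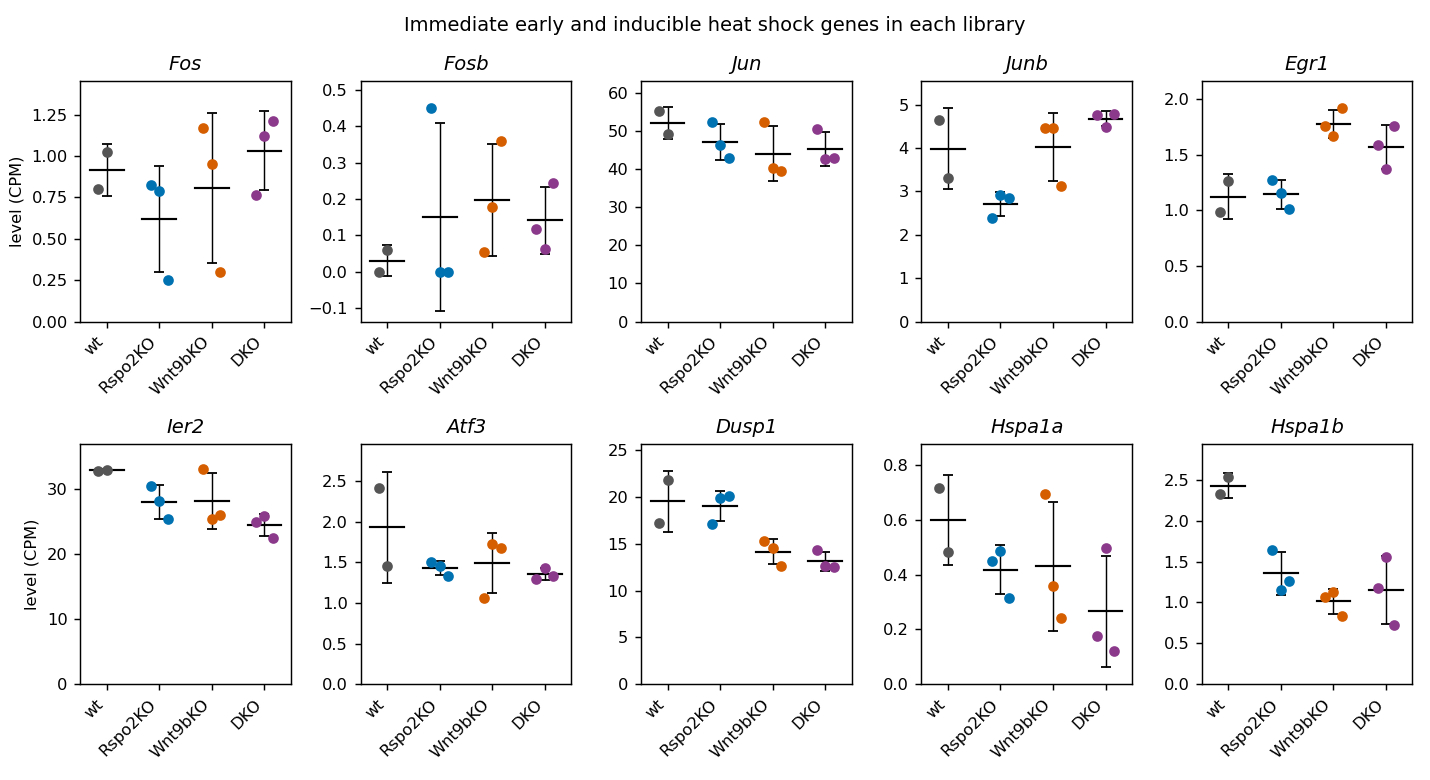
Level of each gene in CPM (vertical axis, from 0) in each library, by genotype. Points are libraries, black bars the mean and whiskers the SD (n = 2 for wt, 3 for the others; the SD of Fosb reaches below 0). The 6 libraries labelled Wnt9bKO or DKO lie below the other 5 for Dusp1 (12.5 to 15.3 against 17.1 to 21.9 CPM) and above them for Egr1 (1.37 to 1.92 against 0.983 to 1.27 CPM). Of all genes tested, 20.8% do not overlap between these sets.

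Jun, a core subunit of AP-1, was at 55.2 and 49.2 CPM in wt, at 52.3, 46.3 and 42.8 in Rspo2KO, at 52.5, 40.3 and 39.5 in Wnt9bKO, and at 50.5, 42.6 and 42.9 in DKO. The genotypes overlapped, and the highest library had 1.40 times the level of the lowest. Its within-genotype SD was 0.17 on the log2 scale, at the 63.6th percentile of 9780 genes of at least 10 CPM (median SD 0.15).

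Ier2 was at 32.7 and 32.9 CPM in wt, at 30.4, 28.2 and 25.3 in Rspo2KO, at 33.0, 25.3 and 26.0 in Wnt9bKO, and at 25.0, 25.8 and 22.5 in DKO. All DKO libraries were below both wt libraries, while Wnt9bKO 1 was at the wt level. Its within-genotype SD of 0.14 on the log2 scale was at the 49.5th percentile. Jun and Ier2 varied together within genotypes (Pearson r = 0.82 over 11 libraries, after subtraction of genotype means), the highest r of the 36 pairs of tested members, whose median was 0.11. These values share libraries and depth and are a description.

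Fos, the partner of Jun in AP-1, rested on 4 to 22 counts a library. It was at 0.804 and 1.03 CPM in wt, at 0.824, 0.789 and 0.253 in Rspo2KO, at 1.17, 0.954 and 0.2999 in Wnt9bKO, and at 0.763, 1.12 and 1.21 in DKO. Rspo2KO 3 and Wnt9bKO 3 were the 2 low libraries, in different genotypes. The highest library was 4.80 times the lowest, and counts varied 2.29 times as much around the genotype means as counting alone gives (median 1.37 over 4307 genes with 40 to 400 counts in all). Fosb had 24 counts in all, from 0 to 6 a library, and was not tested. It had 0 counts in wt 1, Rspo2KO 2 and Rspo2KO 3, which allows levels of up to 0.268, 0.182 and 0.190 CPM (3 counts, counting error only).

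Junb, which replaces Jun in some AP-1 dimers, was at 4.64 and 3.32 CPM in wt, at 2.40, 2.91 and 2.84 in Rspo2KO, at 4.47, 4.47 and 3.12 in Wnt9bKO, and at 4.76, 4.48 and 4.79 in DKO. The Rspo2KO libraries were the 3 lowest of all 11 and the DKO libraries were all above them. Atf3, a stress-induced repressor of the same family, was at 2.41 and 1.45 CPM in wt, at 1.498, 1.46 and 1.33 in Rspo2KO, at 1.06, 1.73 and 1.68 in Wnt9bKO, and at 1.29, 1.43 and 1.34 in DKO. Apart from wt 1 its libraries lay within 1.06 and 1.73 CPM, and its counts (20 to 29) varied around the genotype means about as much as counting alone gives.

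Egr1 was at 0.983 and 1.27 CPM in wt, at 1.27, 1.15 and 1.01 in Rspo2KO, at 1.76, 1.67 and 1.92 in Wnt9bKO, and at 1.59, 1.37 and 1.76 in DKO, on 11 to 33 counts a library. The 6 libraries labelled Wnt9bKO or DKO were all above the other 5. Dusp1, which removes phosphate from MAP kinases and is induced by the same signals as Egr1, ran the other way. It was at 17.2 and 21.9 CPM in wt, at 17.1, 19.9 and 20.1 in Rspo2KO, at 15.3, 14.6 and 12.7 in Wnt9bKO, and at 14.3, 12.6 and 12.5 in DKO, with no overlap between the same 2 sets of libraries. Of all genes tested, 20.8% also did not overlap between these sets.

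Over each whole library the members did not all move together. After subtraction of genotype means, Ier2 varied with Hspa1a (Pearson r = 0.75 over 11 libraries), Hspa1a with Hspa1b (0.65) and Fos with Ier2 (0.56). Other pairs ran against each other, such as Atf3 and Dusp1 (-0.74) and Junb and Egr1 (-0.61). The mean log2 deviation of the tested immediate early members from their average over libraries ran from -0.30 in Rspo2KO 3 and -0.20 in Wnt9bKO 3 to 0.15 in Wnt9bKO 1 and 0.16 in wt 1. Fos, at 4 and 5 counts in the 2 lowest, had the widest within-genotype SD of the immediate early members (0.64 on the log2 scale). Without Fos, an alternative chosen after seeing the data, the mean was -0.14 in Rspo2KO 3, -0.05 in Wnt9bKO 3, 0.08 in Wnt9bKO 1 and 0.18 in wt 1. In Wnt9bKO 1, 6 of 9 tested members were above their median level and in wt 1 7 of 9, against 2 of 9 in both Rspo2KO 3 and Wnt9bKO 3. The 5 other genes whose deviations followed those of the immediate early members most closely, by Pearson r over 11 libraries after subtraction of genotype means, were Itfg2 (0.97), Plekho2 (0.93), Arhgef18 (0.91), Pex6 (0.89) and Cactin (0.88). They are the highest values among the genes of at least 10 CPM, so high r is a result of the choice, and they are given as a description only.

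Of the inducible Hsp70 genes, Hspa1b was highest in wt. It was at 2.32 and 2.54 CPM in wt, at 1.65, 1.15 and 1.26 in Rspo2KO, at 1.06, 1.13 and 0.840 in Wnt9bKO, and at 1.17, 1.56 and 0.728 in DKO, on 12 to 42 counts a library. Every mutant library was below both wt libraries. Among the mutants the lowest Rspo2KO and the highest Wnt9bKO library, at 19 counts each, lay next to each other, and DKO overlapped both genotypes. Hspa1a was at 0.715 and 0.483 CPM in wt, at 0.449, 0.486 and 0.316 in Rspo2KO, at 0.692, 0.358 and 0.240 in Wnt9bKO, and at 0.176, 0.498 and 0.121 in DKO, on 2 to 13 counts, and its genotypes overlapped. The genes encode nearly the same protein and their transcripts were 92.47% identical over 2735 aligned bases. Of the 50-base windows of Hspa1a transcripts 66.31% also occur in transcripts of other genes, and 62.31% of those of Hspa1b. How reads that map to more than 1 gene were counted is not given in the sources used here. The split between the pair, their levels and their sum are therefore uncertain. Hspa1a held 71 of the 310 counts of the pair, or 22.9% (95% exact binomial interval 18.3 to 28.0%, counting error only). The sum of the pair was 3.04 and 3.02 CPM in wt, 2.10, 1.64 and 1.58 in Rspo2KO, 1.76, 1.49 and 1.08 in Wnt9bKO, and 1.35, 2.06 and 0.850 in DKO, so every mutant library was below wt in the sum as well, and Rspo2KO and Wnt9bKO overlapped in it. The share of all genes separated from wt in this way is not given here, so neither Hspa1b nor the sum shows an excess.

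**Figure D2:**
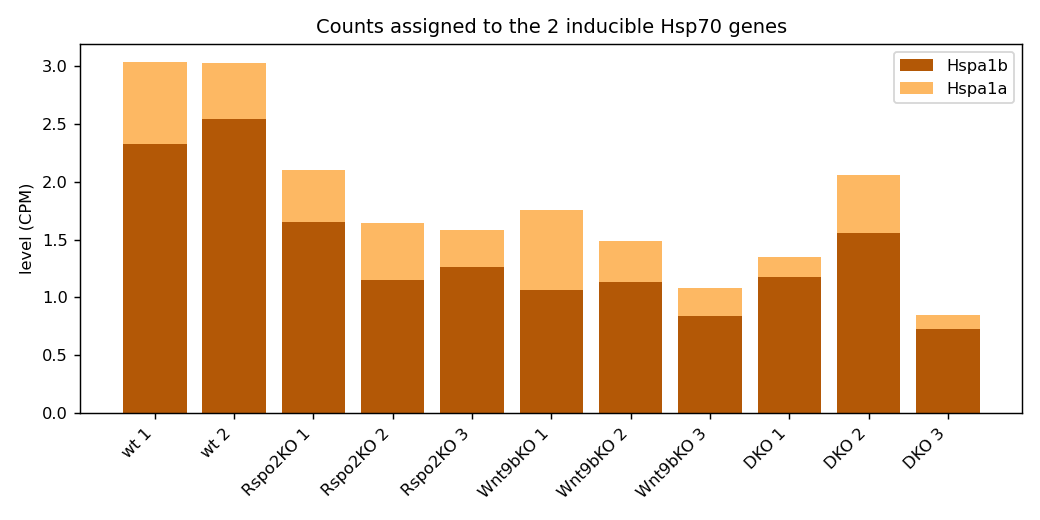
Level in CPM (vertical axis, from 0) of Hspa1b (dark) and Hspa1a (light), stacked, in each of the 11 libraries. Both wt libraries reach 3.02 CPM or more and no mutant library exceeds 2.10 CPM. The share of all genes separated from wt in this way is not given here.

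In comparisons with wt, 2 members fell in Wnt9bKO, none in Rspo2KO and 3 in DKO, and none rose. These comparisons share the 2 wt libraries. Calls are at an adjusted p below 0.05 in edgeR's quasi-likelihood test over 17317 genes (9 members tested), with Benjamini-Hochberg adjustment. In Wnt9bKO, Hspa1b fell by 1.26 on the log2 scale (SE 0.31, adjusted p = 0.00711) and Dusp1 by 0.47 (SE 0.15, adjusted p = 0.0245). Of all genes 32.8% were called in that comparison, so 2 of 9 is no excess. In DKO, Hspa1b fell by 1.08 (SE 0.31, adjusted p = 0.0191), Dusp1 by 0.58 (SE 0.15, adjusted p = 0.0101) and Ier2 by 0.43 (SE 0.14, adjusted p = 0.0305), beside 27.5% of all genes called. Under the rule of unadjusted p below 0.05 with a change over 1.5-fold, Wnt9bKO gave 2 members (Egr1 higher, Hspa1b lower, 24.8% of all genes), Rspo2KO gave Hspa1b lower (4.68%) and DKO gave Hspa1b lower (20.4%).

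In Rspo2KO against wt no member was called by edgeR or by DESeq2 (0.0346% of all genes by edgeR), and 2 had an unadjusted p below 0.05 in edgeR. These were Hspa1b, with a log2 fold change of -0.86 (SE 0.31, adjusted p = 0.293), and Junb, with -0.53 (SE 0.23, adjusted p = 0.385). These calls rest on few wt libraries. Without wt 2 no member was called in Wnt9bKO or DKO. Dusp1 then had log2 fold changes of -0.29 and -0.39 (adjusted p = 0.302 and 0.171), while those of Hspa1b, -1.19 and -1.01 (adjusted p = 0.0644 and 0.125), were close to the values from all libraries. Without wt 1 the DKO count was 1. Without DKO 3 it was also 1, and without Wnt9bKO 3 the Wnt9bKO count was 1, while without Wnt9bKO 1 it was 4. Leaving out the libraries labelled Wnt9bKO 2 and DKO 3 together, whose Rspo2 counts go against the labels, left 2 members called in Wnt9bKO and 1 in DKO. The Dusp1 call in Wnt9bKO was lost in 5 of 21 alternatives, also with only the groups compared (log2 fold change -0.47, adjusted p = 0.0538), with an offset for GC content and length (-0.36, adjusted p = 0.0501), with that offset and a replicate block (-0.34, adjusted p = 0.0781) and without Wnt9bKO 3 (-0.37, adjusted p = 0.095). The Hspa1b call in DKO was lost in 5 of 21, also without wt 1 (-1.14, adjusted p = 0.067), with offset and block (-0.83, adjusted p = 0.0575), without DKO 3 (-0.84, adjusted p = 0.0608) and without both libraries named above (-0.84, adjusted p = 0.0608). The Ier2 call in DKO was lost in 8 of 21. Its log2 fold change was -0.20 with the offset (adjusted p = 0.203) and -0.16 with offset and block (adjusted p = 0.273). It was -0.44 without wt 1 (adjusted p = 0.112), -0.42 without wt 2 (0.130), -0.40 without Rspo2KO 2 (0.0524), -0.44 without DKO 1 (0.0661), -0.37 without DKO 3 (0.0852) and -0.37 without both named libraries (0.0769).

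**Figure D3:**
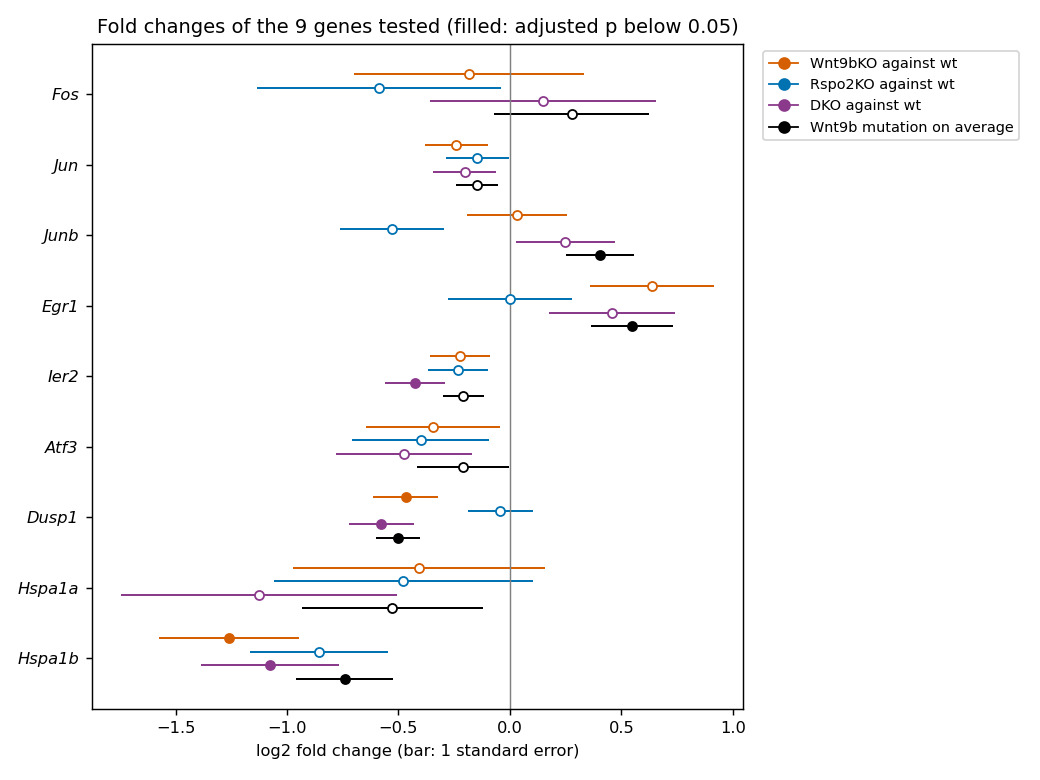
Log2 fold change (horizontal axis) of the 9 tested members in 4 comparisons, with whiskers of 1 standard error and filled points for an adjusted p below 0.05 in edgeR's test. Dusp1 and Hspa1b are filled and below 0 in Wnt9bKO, DKO and the Wnt9b average, while Egr1 and Junb are filled and above 0 in the average.

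The average over both Rspo2 states (Wnt9bKO and DKO against wt and Rspo2KO) uses all 11 libraries. It called 4 of 9 members, beside 42.1% of all genes, so the share is near the background. Dusp1 fell by 0.50 (SE 0.10, adjusted p = 0.00103, edgeR) and Hspa1b by 0.74 (SE 0.22, adjusted p = 0.0131), while Egr1 rose by 0.55 (SE 0.18, adjusted p = 0.0271) and Junb by 0.41 (SE 0.15, adjusted p = 0.0438). Of the 2 comparisons averaged, Wnt9bKO against wt and DKO against Rspo2KO, the log2 fold changes were -1.26 and -0.22 (SE 0.30, adjusted p = 0.662) for Hspa1b and 0.03 (adjusted p = 0.927) and 0.78 for Junb. The difference between the comparisons, the interaction, was not called for either (1.04, SE 0.43, adjusted p = 0.485 for Hspa1b, and 0.74, SE 0.30, adjusted p = 0.472 for Junb). Their average values are therefore not changes shown in both Rspo2 states. Egr1 was called in neither of the 2 comparisons, at 0.64 (adjusted p = 0.0913, edgeR) and 0.46 (adjusted p = 0.217). For Ier2 the log2 difference in the average was -0.21 (SE 0.09, adjusted p = 0.0801), for Jun -0.15 (SE 0.09, adjusted p = 0.227), for Atf3 -0.21 (SE 0.21, adjusted p = 0.440), for Fos 0.28 (SE 0.35, adjusted p = 0.556) and for Hspa1a -0.53 (SE 0.41, adjusted p = 0.318). Of the members, only Dusp1 kept its call in all 20 alternatives run (adjusted p from 4.89e-05 to 0.0125). Hspa1b lost its call without wt 2 (log2 fold change -0.71, adjusted p = 0.0533, edgeR). Egr1 lost its call in 6 of 20, at 0.55 with DESeq2 (adjusted p = 0.129) and 0.46 without wt 1 (adjusted p = 0.109, edgeR). Junb lost its call in 12 of 20, at 0.40 with DESeq2 (adjusted p = 0.0896) and 0.28 without wt 2 (adjusted p = 0.226, edgeR). Without the libraries labelled Wnt9bKO 2 and DKO 3, Egr1 had a log2 fold change of 0.53 (adjusted p = 0.0634, edgeR) and Junb one of 0.36 (adjusted p = 0.111).

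Library by library, the exact permutation test of 6 against 5 libraries (two-sided, 462 arrangements, unadjusted, smallest possible p 0.00216) set Dusp1 at 13.7 ± 1.21 CPM (SD, n = 6) against 19.2 ± 2.02 (n = 5). Its p was that smallest value of 0.00216. Egr1 was at 1.68 ± 0.19 against 1.14 ± 0.14 CPM (exact p = 0.00433), Hspa1b at 1.08 ± 0.29 against 1.78 ± 0.62 (exact p = 0.0346) and Junb at 4.35 ± 0.62 against 3.22 ± 0.86 (exact p = 0.0368). With 1 library left out, the exact p of Hspa1b reached 0.0762 (without wt 2) and that of Junb 0.119 (without Rspo2KO 1), and with all libraries scaled to total counts alone the exact p of Hspa1b was 0.0519. The exact p was 0.108 for Ier2, 0.173 for Hspa1a, 0.188 for Jun, 0.238 for Fosb, 0.394 for Atf3 and 0.465 for Fos. Of the members tested in edgeR, Dusp1 and Egr1 did not overlap between the sets, as 20.8% of all genes did not.

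Between the mutants, DKO differed from Rspo2KO in 2 of 9 members (18.2% of all genes called). Junb rose by 0.78 (SE 0.20, adjusted p = 0.016, edgeR) and Dusp1 fell by 0.53 (SE 0.13, adjusted p = 0.0125). Without Rspo2KO 3 neither was called, at log2 fold changes of 0.81 (adjusted p = 0.0526) and -0.49 (adjusted p = 0.059), and 1 of them was called without Rspo2KO 2, without DKO 1 and without DKO 2. DKO did not differ in any member from Wnt9bKO (0 by edgeR and DESeq2, none with an unadjusted p below 0.05, 0.121% of all genes). The average effect of Rspo2 mutation gave 0 by both tools, with 1 member at an unadjusted p below 0.05 (Ier2) and 0.0635% of all genes called. The interaction also gave 0 by both tools, with 2 at an unadjusted p below 0.05 (Hspa1b and Junb) and 0.0635% of all genes called.

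The other immediate early genes, the factors upstream, the remaining chaperones and the genes of endoplasmic reticulum (ER) stress were set beside the members in the Wnt9b average. Of 36 other immediate early genes 34 were tested (Egr3 and Egr4 were too low), and 9 rose and 3 fell, which is 35.3% called against 42.1% of all genes, with a median log2 difference of 0.11 against 0.02 over all genes. The orphan nuclear receptors Nr4a1 and Nr4a2 rose by 0.85 (SE 0.16, adjusted p = 0.000775) and 0.82 (SE 0.18, adjusted p = 0.00181), Nr4a1 from 1.47 ± 0.06 CPM in wt and 1.73 ± 0.26 in Rspo2KO to 2.74 ± 0.36 in Wnt9bKO and 3.01 ± 0.20 in DKO. The clock gene Per1 rose by 0.67 (SE 0.14) and the AP-1 subunit Jund by 0.57 (SE 0.11). Per1 was at 5.64 ± 0.14 CPM in wt, 8.53 ± 2.33 in Rspo2KO, 11.2 ± 1.28 in Wnt9bKO and 10.8 ± 0.78 in DKO. Nr4a2 was at 2.73 ± 0.58, 4.46 ± 0.73, 6.27 ± 0.61 and 6.14 ± 1.84 CPM in the same order. For Per1 and Nr4a2 the Rspo2KO and DKO means differed by less than the larger SD. Their averages are therefore not changes shown in both Rspo2 states. The small GTPase Rhob fell by 0.46 (SE 0.07) and the antiproliferative gene Btg2 by 0.50 (SE 0.09). Against wt, 6 rose and 2 fell in Wnt9bKO (23.5% called, against 32.8% of all genes) and 5 rose and 2 fell in DKO (20.6% against 27.5%). In Rspo2KO 0 of 34 were called by edgeR or DESeq2 (4 with an unadjusted p below 0.05), beside 0.0346% of all genes by edgeR.

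Of 14 upstream factors 6 rose and 1 fell (median 0.15), or 7 of 14 called beside 42.1% of all genes. The SRF partner Elk4 rose by 0.89 (SE 0.11, adjusted p = 1.75e-05), the stress kinase Mapk14, p38 alpha, by 0.56 (SE 0.08), the SRF coactivator Mkl1 by 0.55 (SE 0.14) and heat shock factor 2, Hsf2, by 0.43 (SE 0.08). Mkl1 was at 10.3 ± 1.06 CPM in wt, 17.5 ± 4.75 in Rspo2KO, 20.5 ± 1.17 in Wnt9bKO and 18.8 ± 3.34 in DKO. Its means in Rspo2KO and DKO differed by less than either SD, so its average is not a change shown in both Rspo2 states. Hsf2 was at 36.1 ± 4.37, 46.5 ± 3.96, 54.7 ± 4.11 and 55.4 ± 4.73 CPM in the same order. Against wt, 4 rose and 1 fell in both Wnt9bKO and DKO (35.7% called, against 32.8% and 27.5% of all genes). In Rspo2KO none of 14 was called by either tool (4 with an unadjusted p below 0.05), beside 0.0346% of all genes by edgeR.

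Of the 24 other heat shock and chaperone genes 7 were called higher and 7 lower. That is 58.3% called against 42.1% of all genes, of which 3729 were higher and 3561 lower. The constitutive Hsc70 gene Hspa8 fell by 0.89 (SE 0.11, adjusted p = 2.56e-05), from 1788 ± 185 CPM in wt and 1755 ± 225 in Rspo2KO to 1004 ± 104 in Wnt9bKO and 912 ± 178 in DKO. The Hsp40 co-chaperone Dnajb1 fell by 0.72 (SE 0.09), the Hsp110 gene Hsph1 by 0.69 (SE 0.09) and the collagen chaperone Serpinh1 by 0.68 (SE 0.09). In contrast Hsp90ab1, the constitutive cytosolic Hsp90, rose by 0.76 (SE 0.09, adjusted p = 2.56e-05), from 1853 ± 408 CPM in wt and 1471 ± 56 in Rspo2KO to 2886 ± 122 and 2714 ± 156, and the Hsp40 gene Dnaja1 rose by 0.66 (SE 0.07). Against wt, 4 rose and 8 fell in Wnt9bKO (12 of 24 called, beside 32.8% of all genes) and 5 rose and 8 fell in DKO (54.2% against 27.5%). In Rspo2KO none of 24 was called by either tool (5 with an unadjusted p below 0.05), beside 0.0346% of all genes by edgeR. Of 11 ER stress genes 4 fell and none rose (median -0.16), which is 36.4% called against 42.1% of all genes. With the GC content and length offset 4 fell and 3 rose, which is 63.6% against 42.5% of all genes. The pseudokinase gene Trib3 fell by 1.66 (SE 0.24, adjusted p = 8.46e-05), from 1.48 ± 0.05 CPM in wt and 0.966 ± 0.182 in Rspo2KO to 0.366 ± 0.049 and 0.383 ± 0.025. Sdf2l1 fell by 0.71 (SE 0.13), Herpud1 by 0.47 (SE 0.11) and Xbp1 by 0.46 (SE 0.09), all 3 of the unfolded protein response. None of 11 was called in Rspo2KO against wt by either tool, beside 0.0346% of all genes by edgeR, and none had an unadjusted p below 0.05.

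**Figure D4:**
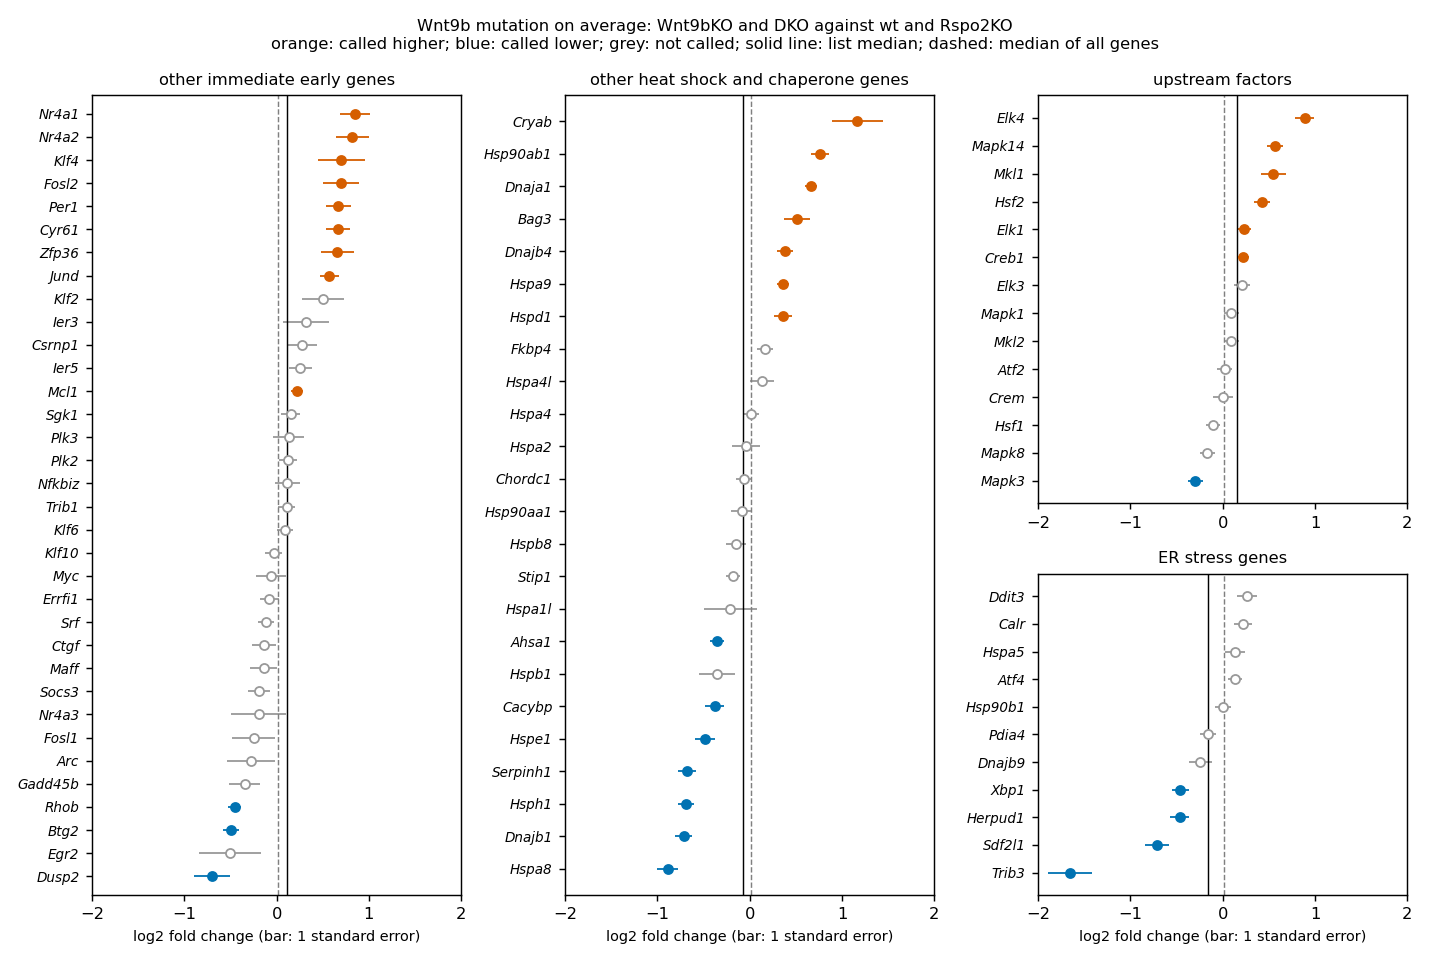
Log2 fold change (horizontal axis) of each listed gene for the Wnt9b mutation on average, with whiskers of 1 standard error. Orange points were called higher and blue points lower at an adjusted p below 0.05, solid lines are list medians and the dashed line is the median of all genes (0.02). The called chaperones divide into 7 higher and 7 lower, while the 4 ER stress genes called without a GC content and length offset are all lower.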

How the data were processed

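Total RNA from facial processes was sequenced in single-end reads of 50 bases. As the methods and processing notes state, the authors used cutadapt for trimming, STAR for alignment (GRCm38) and HTSeq for counting, and the deposited values are raw counts per gene. Strand setting and handling of multi-mapping reads are not given in the sources used here. Jun overlaps the antisense gene Junos, Junb overlaps Prdx2, Dusp1 overlaps Ergic1, Atf3 overlaps Gm24748 and Hspa1a overlaps Gm20481. No annotated gene overlaps Hspa1b.

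Counts were tested with edgeR 4.0.16 (R 4.3.3) in a quasi-likelihood model of genotype over all 11 libraries, after filterByExpr and TMM scaling. CPM are TMM-scaled, log2 CPM use a prior count of 2, and exon lengths come from GENCODE M21. Alternatives were DESeq2 1.42.0, other scalings and filters, only the groups compared, a replicate block, a GC content and length offset, and leaving out libraries. Only tested genes entered p adjustment. The members and gene lists were chosen with earlier results of these data known. Genes named beyond the members are, per list, up to 4 called with the smallest p in a comparison with wt or in the Wnt9b average, and the 5 most similar in pattern.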

Additional observations from a re-analysis of the deposited data

Results flagged for a closer look

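In 4 of 20 groups of 5 or 6 libraries examined (each of the 10 genes, in the libraries labelled wt or Rspo2KO and in those labelled Wnt9bKO or DKO), 1 library stood apart from the rest by Dixon's test, which chance does in about 1 in 20 groups. Fosb was at 0.449 CPM in Rspo2KO 1, on 6 counts, beside 0 or 1 counts in the other libraries labelled wt or Rspo2KO. The rate of 1 in 20 assumes independent groups of normally distributed values and does not hold for such counts. The groups also pool genotypes and share libraries between genes, so 4 of 20 shows no excess. Atf3 was at 2.41 CPM in wt 1, on 27 counts, above the other libraries labelled wt or Rspo2KO, which had 20 to 24 counts. Ier2 was at 33.0 CPM in Wnt9bKO 1, above the other libraries labelled Wnt9bKO or DKO. Junb was at 3.12 CPM in Wnt9bKO 3, below the other libraries labelled Wnt9bKO or DKO.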

How the results depend on the processing

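Low counts limit Fos, Fosb, Egr1, Atf3, Hspa1a and Hspa1b, and 2 wt libraries limit each comparison with wt. The number of members called in Wnt9bKO against wt (2) was 1 with only the groups compared, 1 with the GC content and length offset and 1 with that offset and the replicate block, and 0 to 4 with 1 library left out. In DKO against wt (3) it was 1 with the offset and block, 1 without the libraries labelled Wnt9bKO 2 and DKO 3, and 0 to 3 with 1 library left out. In DKO against Rspo2KO (2) it was 0 to 2 with 1 library left out. In the Wnt9b average (4) it was 2 with no filter on low counts, 2 with DESeq2, 2 without both those libraries, and 2 to 5 with 1 library left out. The count of members with an exact p below 0.05 (4) was 2 to 4 with 1 library left out, with 2 reached without wt 2 and without DKO 3. The share of all genes below that exact p is not given here, so this count shows no excess. ER stress genes called in the average numbered 7 with the offset (4 lower, 3 higher) against 4. The comparisons with no member called gave 0 throughout. Signs turned for uncalled values alone. Ier2 in Wnt9bKO (-0.22) became 0.028 with the offset and 0.069 with offset and block, and in the average (-0.21) 0.017 with offset and block. Junb in Wnt9bKO (0.03) became -0.047 without the libraries labelled Wnt9bKO 2 and DKO 3 and ran from -0.21 without wt 2 to 0.27 without wt 1. Hspa1b in DKO against Rspo2KO (-0.22) ran from -0.49 to 0.025 with 1 library left out and was 0.026 without the libraries labelled Wnt9bKO 2 and DKO 3. Without Wnt9bKO 1, Ier2 (adjusted p = 0.0136, edgeR) and Jun (adjusted p = 0.0439) were called lower in the average. The cause of these shifts was not tested beyond the smaller number of libraries. The listed genes named in the text kept their direction and call in the Wnt9b average under every alternative that tested them. Their sizes moved, with Sdf2l1 (-0.71) from -0.82 to -0.42 and Rhob (-0.46) from -0.48 to -0.29.

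The replicate numbers shared by the genotypes were checked for pairing. Same-numbered libraries had correlations of their deviations from -0.11 to 0.24, with 3 of 15 pairs above 0.1, where a pairing would have needed every pair above it, and the labels name no shared litter or day. Their median was 0.07 against -0.02 between different numbers, and 8 of 11 libraries correlated best with their own number, a hint from the data and not from the design. With the replicate block, 2, 0 and 3 members were called in Wnt9bKO, Rspo2KO and DKO against wt, 2 in DKO against Rspo2KO and 4 in the Wnt9b average.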
